A study of Homo sapiens with 12 samples.

Results

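The tripartite-motif (TRIM) ubiquitin ligases were followed in macrophage-like THP-1 cells with and without syndecan-3, and with and without interferon gamma (IFN-γ). Members were all rows of the gene table that map to a protein-coding gene whose symbol is TRIM followed by a number. This gave 67 genes of 58051 in the table, on 17 chromosomes, with 15 of them on chromosome 11. THP-1 is an established human monocytic leukaemia line that takes on macrophage features after phorbol ester (PMA). The cells were wild type or knocked out for SDC3, the gene of the heparan sulphate proteoglycan syndecan-3. Cells of all 4 groups had received PMA at 20 ng/ml for 24 h and a change of medium, and the treated groups were given recombinant human IFN-γ the day after. Each group (wild type or SDC3 knockout, without or with IFN-γ) had 3 libraries. How much IFN-γ was added, and for how long, was not stated in the labels, and neither was the number of edited clones. Nothing said that a group's libraries were separate cultures. P-values therefore cover the spread among these libraries alone, which may be technical. Levels are TMM-scaled CPM, that is, counts relative to the library's scaled total. Log2 fold changes, standard errors (SE) and adjusted p-values are from edgeR's quasi-likelihood test over 17119 genes, and a gene was called at an adjusted p under 0.05.

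TRIM proteins carry a RING domain that takes ubiquitin from a conjugating enzyme, B-box zinc-binding domains, a coiled coil through which they pair, and a C-terminal part that differs between members and chooses the target. Many of their genes respond to interferon, which acts through IRF1 and other transcription factors. In macrophages, members of the family bind incoming virus capsids, detect antibody-coated virus in the cytosol, or attach ubiquitin chains to RNA sensors and their adaptors.

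Promoter sequence is shown for members that moved together. Matches to a short form of the interferon-stimulated response element (ISRE), GAAANNGAA, were searched on both strands from 250 bases before to 50 bases after the transcription start. RefSeq's promoter table for GRCh38.p14 held 53 of the 67 members, and the first listed start of each gene was used. A match stood in 7 of the 12 listed members that rose with IFN-γ in both genotypes (58.3%), in 1 of the 23 listed members that were tested and did not (4.35%), and in 8.29% of all 27305 promoters. That 1 member was TRIM16, which had a match and was called in neither response (log2 fold change -0.04 in wild type and -0.02 in the knockout). The short form of the gamma-activated site (GAS), TTCNNNGAA, stood in 1 of the same 12 members (8.33%), in 13.2% of the listed members and in 7.88% of all promoters. A match describes letters only, and binding was not measured. TRIM22, which had the largest rise, was not listed and so was not searched. Of the 7 listed members that rose in both genotypes, by at least 1 on the log2 scale in wild type, 4 had an ISRE match. TRIM25 was listed and had none. TRIM69 and TRIM5 had the largest rises in wild type among members with a match, and the 250 bases before their start are shown. A shorter stretch around the match is shown for the 5 others that rose. TRIM34, beside TRIM6 and TRIM5, is shown as a member with a match and 0 to 2 counts in every library. Those counts are uncertain, because TRIM34 shares 83.0% of its exon bases with another gene, and they do not show that it was silent. Capitals mark the ISRE match on either strand, and each sequence is written along the gene.
TRIM69, chr15:44736278-44736527, plus strand: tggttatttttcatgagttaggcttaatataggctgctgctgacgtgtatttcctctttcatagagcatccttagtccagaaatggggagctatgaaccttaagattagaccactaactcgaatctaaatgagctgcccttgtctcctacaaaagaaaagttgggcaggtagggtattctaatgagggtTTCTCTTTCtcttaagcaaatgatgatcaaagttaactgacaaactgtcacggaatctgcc
TRIM5, chr11:5685075-5685324, minus strand: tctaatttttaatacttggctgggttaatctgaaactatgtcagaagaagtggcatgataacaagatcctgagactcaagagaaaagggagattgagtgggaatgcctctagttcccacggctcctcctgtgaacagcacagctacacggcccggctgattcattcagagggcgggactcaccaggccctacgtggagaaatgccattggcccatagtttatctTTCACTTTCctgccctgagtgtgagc
TRIM21, chr11:4393668-4393688, minus strand: gcgGAAACTGAAAGTGAAata
TRIM26, chr6:30213565-30213619, minus strand: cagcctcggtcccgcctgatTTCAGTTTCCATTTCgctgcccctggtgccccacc
TRIM14, chr9:98119223-98119267, minus strand: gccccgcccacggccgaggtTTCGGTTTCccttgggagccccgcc
TRIM44, chr11:35662720-35662768, plus strand: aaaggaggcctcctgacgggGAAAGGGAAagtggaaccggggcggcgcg
TRIM2, chr4:153151926-153151974, plus strand: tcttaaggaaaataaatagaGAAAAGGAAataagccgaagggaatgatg
TRIM34, chr11:5624892-5624940, plus strand: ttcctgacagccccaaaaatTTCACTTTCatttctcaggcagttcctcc
The match ended 18 bases before the start in TRIM5, 53 before it in TRIM69 and 17 before it in TRIM14. TRIM21 and TRIM26 each hold a pair of overlapping matches, and in TRIM21 they began 18 bases past the start.

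Total counts ranged from 23616738 to 29426415 a library, and the TRIM family took 0.182% to 0.262% of them. A floor of 3 counts was worth 0.0924 to 0.13 CPM. Mates were counted separately, so that floor is too low where both mates of a fragment were counted. SDC3 stood at 196, 252 and 241 CPM in wild type and 49.9, 48.1 and 43.9 CPM in the knockout without IFN-γ. With IFN-γ it stood at 578, 590.0 and 571 CPM in wild type and 237, 237 and 244 CPM in the knockout. The knockout libraries were lower at each condition (log2 fold change -2.28, SE 0.06, without and -1.28, SE 0.06, with IFN-γ), and SDC3 transcript was still counted in all of them. Of 7 myeloid markers, CD14, CSF1R, ITGAM, SPI1, LYZ and CD163 were well above the floor in every library. CD68, a lysosomal macrophage marker, reached at most 0.647 CPM. Exon overlap was computed for TRIM members only, so whether CD68 lost reads to another gene was not tested. Of 9 markers of T cells, B cells, epithelium, fibroblasts and erythroid cells, MS4A1 and HBG1 were at 0 in all libraries. The sum of all 9 ranged from 10.99 CPM in wild type to 21.8 CPM in the knockout with IFN-γ, most of it COL1A1. All 15 IFN-γ response genes listed (IRF1, guanylate-binding proteins and others) rose in both genotypes, with a median log2 fold change of 6.83 in wild type and 6.47 in the knockout.

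Of the 67 members, 45 had enough counts to be tested. Among the other 22, 10 were at 0 in all 12 libraries and 12 had at most 17 counts in a library. Counting used no strand, and 11 members share more than 10% of their exon bases with another gene, so their values are uncertain. TRIM34, a relative of TRIM5, shares 83.0% of its exon bases with the readthrough gene TRIM6-TRIM34, which was at 0. TRIM6 shares 29.3% with the same gene, TRIM59 shares 34.3%, chiefly with SMC4, and TRIM47 shares 51.5% with the antisense gene ENSG00000267801. Chromosome 6 from 28 to 34 Mb holds the major histocompatibility complex, and the 7 members there (TRIM10, TRIM15, TRIM26, TRIM27, TRIM31, TRIM39 and TRIM40) are marked as poorly counted. Among genes of at least 5 CPM, the median SD of log2 CPM within groups was 0.14 in that window (74 genes) and 0.0809 elsewhere. It was 0.243 for TRIM26 and 0.0683 for TRIM27. TRIM31, a ligase of the mitochondrial antiviral adaptor MAVS, had 14, 17 and 2 counts in the knockout libraries with IFN-γ and 2, 8 and 0 in the wild-type ones. It was at 0 in every library without IFN-γ, and replicates with IFN-γ differed widely. TRIM39 had 0 to 2 counts in every library, TRIM15 had 2 counts in 1 library, and TRIM10 and TRIM40 were at 0.

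The summed level of the family was 1686 ± 20.0 CPM in wild type without and 2760 ± 25.6 CPM with IFN-γ (SD, n = 3 each). In the knockout it was 1687 ± 5.28 CPM without and 2954 ± 23.7 CPM with IFN-γ, so the groups with IFN-γ lay far above those without. Much of this gain lay in TRIM22 and TRIM25. TRIM22 went from a mean of 21.2 to 413 CPM in wild type and from 19.3 to 435 CPM in the knockout. TRIM25 went from 85.4 to 432 CPM and from 139 to 562 CPM. In wild type 20 of the 45 tested members rose, against 28.6% of all genes, and 11 fell, against 27.9%. In the knockout 20 rose, against 29.2% of all genes, and 9 fell, against 31.8%. Among these, 16 members rose in both genotypes (23.9% of all genes), 9 fell in both (22.6%), and 0 moved in opposite directions (0.707%). The median log2 fold change of the members was 0.17 in wild type and 0.07 in the knockout, beside -0.02 and -0.05 over all genes. Called rises of at least 1 on the log2 scale were seen in 9 members in wild type (7.41% of all genes) and 9 in the knockout (8.5%). Called falls of that size were seen in 5 in wild type (8.81%) and 3 in the knockout (10.9%). The split depended on scaling: with library totals alone, which moved the median of all genes by -0.25 in wild type and -0.30 in the knockout, 15 members rose and 18 fell in wild type, and 14 rose and 17 fell in the knockout. Fewer cells of a type and less RNA per cell cannot be told apart in such bulk samples.

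Per kilobase of exon, TRIM28, the corepressor of KRAB zinc-finger proteins also called KAP1, had the highest level of the family in wild type without IFN-γ, at 74.4 CPM per kb. TRIM8 followed at 46.99, TRIM21 at 22.1 and TRIM14 at 20.6 CPM per kb, while TRIM22 stood at 3.53. With IFN-γ, TRIM21 (69.2), TRIM22 (68.7), TRIM28 (66.9), TRIM25 (64.8) and TRIM8 (62.2 CPM per kb) lay close together in wild type, and differences between genes were not tested. In the knockout with IFN-γ the order was TRIM25 (84.3), TRIM21 (81.9), TRIM22 (72.2), TRIM8 (56.5) and TRIM28 (48.02 CPM per kb).

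TRIM22, a restriction factor of human immunodeficiency virus and influenza virus, had the largest rise in the family. It stood at 21.7, 20.7 and 21.3 CPM in wild type without IFN-γ and at 420.2, 393 and 427 CPM with it. The knockout stood at 19.4, 18.7 and 19.8 CPM without and 419, 435 and 451 CPM with IFN-γ. Every treated library was far above every untreated one, 19.5-fold in wild type (log2 fold change 4.28 with SE 0.05 and adjusted p = 3.1e-35) and 22.6-fold in the knockout (log2 fold change 4.50 with SE 0.05 and adjusted p = 8.3e-36). TRIM69, which can restrict vesicular stomatitis virus, stood at 2.06, 2.03 and 2.28 CPM in wild type without IFN-γ and 14.3, 12.5 and 14.2 CPM with it. For the knockout, values were 2.66, 2.77 and 2.19 CPM without and 15.8, 16.2 and 16.2 CPM with IFN-γ. Treated and untreated libraries were apart in both genotypes, 6.42-fold in wild type (log2 fold change 2.68 with SE 0.12 and adjusted p = 1.1e-18) and 6.33-fold in the knockout (log2 fold change 2.66 with SE 0.12 and adjusted p = 3.1e-19). TRIM25, the ligase that attaches ubiquitin chains to the RNA sensor RIG-I, rose from 90.7, 81.7 and 83.6 to 436, 427 and 433 CPM in wild type (log2 fold change 2.34 with SE 0.04 and adjusted p = 8.1e-30). The knockout already stood at 143, 139 and 135 CPM without IFN-γ and reached 553, 579.9 and 552 CPM with it (log2 fold change 2.01 with SE 0.04 and adjusted p = 2.1e-28). For TRIM25 no group overlapped another, and the knockout was higher at both conditions.

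TRIM5, which binds the capsid of incoming retroviruses, lies beside TRIM22 on chromosome 11 on the opposite strand (chr11:5663557-5938619 and chr11:5689689-5737089, build hg38), and its annotated span contains TRIM22. The promoter shown for TRIM5 (chr11:5685075-5685324) belongs to a start inside that span, and transcripts from it do not reach TRIM22. TRIM5 stood at 7.92, 7.49 and 7.47 CPM in wild type and 6.87, 6.37 and 7.58 CPM in the knockout without IFN-γ, where the genotypes overlapped. With IFN-γ it stood at 29.8, 26.4 and 31.2 CPM in wild type and 37.99, 38.1 and 37.7 CPM in the knockout, where they did not. The rise was 3.82-fold in wild type (log2 fold change 1.93 with SE 0.09 and adjusted p = 4.2e-19) and 5.46-fold in the knockout (log2 fold change 2.45 with SE 0.09 and adjusted p = 4.7e-22). TRIM21, the cytosolic antibody receptor, rose from 43.2, 43.1 and 41.8 to 133, 135 and 132 CPM in wild type (log2 fold change 1.64 with SE 0.05 and adjusted p = 2.3e-24). In the knockout it rose from 57.4, 56.04 and 52.3 to 159, 160.1 and 155 CPM (log2 fold change 1.52 with SE 0.05 and adjusted p = 8.2e-24), again with all 4 groups apart. TRIM38, a regulator of Toll-like receptor and nucleic acid sensing, stood at 68.4 ± 3.64 CPM in wild type and 82.2 ± 1.21 CPM in the knockout without IFN-γ (SD, n = 3) and rose 2.11-fold and 2.09-fold. TRIM56, which acts in responses to cytosolic DNA and RNA, rose by 0.76 on the log2 scale in each genotype, from 88.5 ± 6.07 CPM in wild type and 119.5 ± 1.47 CPM in the knockout. TRIM14, an adaptor at MAVS that lacks a RING domain, rose from 111, 113 and 114 to 143, 154 and 145 CPM in wild type (log2 fold change 0.38 with SE 0.04 and adjusted p = 2.2e-09). In the knockout TRIM14 rose from 157, 156 and 155 to 182, 174 and 179 CPM (log2 fold change 0.19 with SE 0.04 and adjusted p = 0.00016), but with library totals alone the log2 fold change was -0.10 (adjusted p = 0.025).

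**Figure D1:**
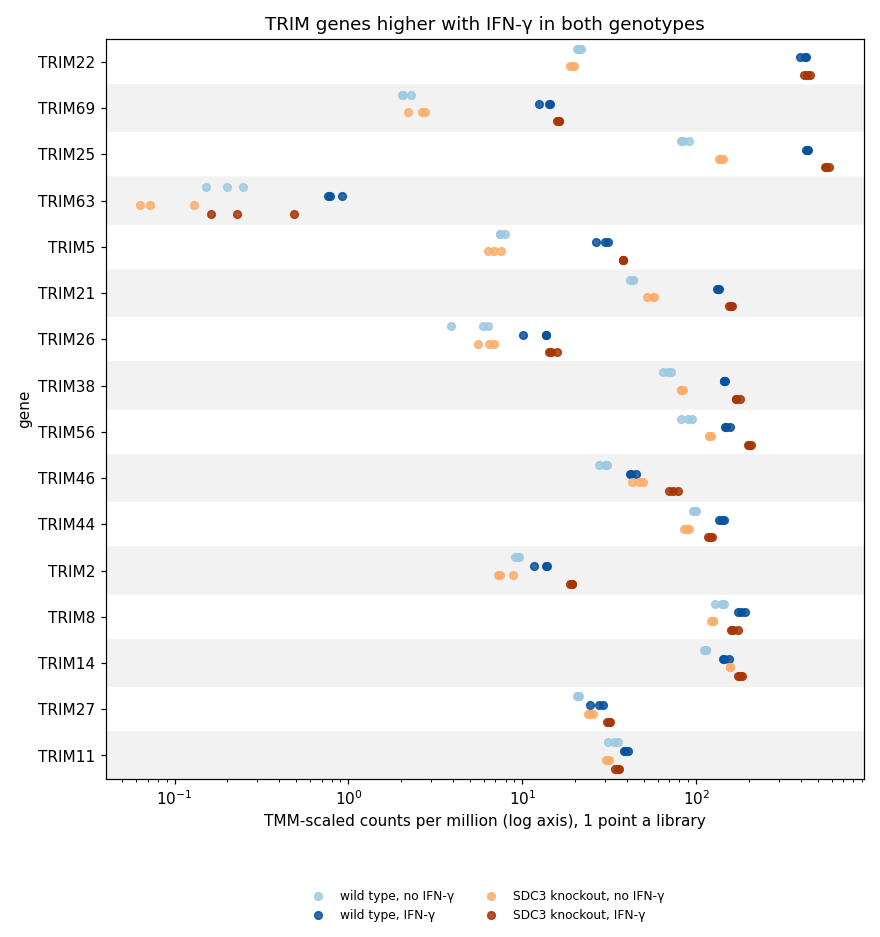
Level of the 16 members that rose with IFN-γ in both genotypes, in TMM-scaled CPM on a log axis, 1 point a library and 1 colour a group, ordered by the log2 fold change in wild type. TRIM22 moves from between 18.7 and 21.7 CPM to between 393 and 451 CPM, TRIM5 separates the genotypes after IFN-γ and not before, and TRIM63 lies below 1 CPM in all libraries.

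The other members that rose in both genotypes were TRIM46, TRIM8, TRIM26, TRIM27, TRIM63, TRIM44, TRIM11 and TRIM2, which is described below. TRIM46, which bundles microtubules in the axon of neurons, rose 1.47-fold from 29.2 ± 1.63 CPM in wild type and 1.59-fold from 46.3 ± 3.18 CPM in the knockout (SD, n = 3). TRIM8, a regulator of cytokine signalling that targets SOCS1, rose by 0.40 and 0.41 on the log2 scale. TRIM26 and TRIM27, both poorly counted, rose in both genotypes. TRIM26, which acts on the transcription factor IRF3, stood at 6.32, 5.98 and 3.89 CPM without and 10.1, 13.7 and 13.7 CPM with IFN-γ in wild type (log2 fold change 1.21 with SE 0.14 and adjusted p = 4.8e-09). Knockout values were 6.91, 5.54 and 6.42 CPM without and 15.8, 14.7 and 14.1 CPM with IFN-γ (log2 fold change 1.24 with SE 0.13 and adjusted p = 1.1e-09), and no treated library was as low as an untreated one. TRIM27, a nuclear ligase also known as RET finger protein, rose by 0.37 and 0.34 on the log2 scale, and was called in neither response with library totals alone (adjusted p = 0.13 in wild type and 0.56 in the knockout). TRIM63, TRIM44 and TRIM11 also rose in both genotypes and were named after their values were seen. TRIM63, a muscle RING-finger ligase, rose 3.99-fold in wild type (log2 fold change 2.00 with SE 0.49 and adjusted p = 0.00081) and 3.18-fold in the knockout (log2 fold change 1.67 with SE 0.65 and adjusted p = 0.027), from only 2 to 23 counts in a library. Its rise in the knockout was not called with DESeq2, library totals alone or no low-count filter (adjusted p from 0.053 to 0.061) or without replicate 1 or 2 of the knockout without IFN-γ or replicate 2 of the knockout with IFN-γ (adjusted p from 0.076 to 0.22). TRIM44, a B-box protein without a RING domain, rose by 0.51 and 0.45 on the log2 scale, and TRIM11 rose by 0.23 and 0.19, values that turned to -0.02 and -0.10 with library totals alone (adjusted p = 0.75 and 0.15).

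The 9 members that fell in both genotypes were TRIM54, TRIM45, TRIM59, TRIM65, TRIM32, TRIM58, TRIM35, TRIM66 and TRIM28. TRIM54, a muscle RING-finger ligase, and TRIM45, which carries a filamin domain, had the largest falls, at low counts. TRIM54 had 56, 86 and 97 counts in wild type without IFN-γ and 8, 4 and 4 with it (log2 fold change -3.61 with SE 0.38 and adjusted p = 6.1e-10). Its counts in the knockout were 32, 32 and 45 without and 2, 8 and 8 with IFN-γ (log2 fold change -2.32 with SE 0.40 and adjusted p = 7.2e-06). TRIM45 had 55, 51 and 53 counts in wild type without IFN-γ and 8, 6 and 8 with it (log2 fold change -2.59 with SE 0.34 and adjusted p = 9.5e-08). Its counts in the knockout were 70, 74 and 46 without and 10, 8 and 9 with IFN-γ (log2 fold change -2.55 with SE 0.33 and adjusted p = 3.8e-08). Both were well separated by treatment in each genotype, close to the floor with IFN-γ. TRIM59, a membrane-anchored member, stood at 11.1, 9.37 and 9.28 CPM in wild type without IFN-γ and 5.29, 5.01 and 4.30 CPM with it (log2 fold change -1.02 with SE 0.14 and adjusted p = 9.4e-08). The knockout stood at 7.27, 8.63 and 8.35 CPM without and 2.96, 1.87 and 2.75 CPM with IFN-γ (log2 fold change -1.68 with SE 0.15 and adjusted p = 2.1e-11). The treated knockout was the lowest group and overlapped no other. SMC4, the condensin subunit whose exons it shares, stood at 113, 48.6, 89.3 and 40.04 CPM in wild type without, wild type with, knockout without and knockout with IFN-γ. Its response was -1.22 in wild type and -1.16 in the knockout on the log2 scale. All 20 cell cycle genes listed, among them MKI67 and TOP2A, fell in both genotypes, with a median log2 fold change of -2.09 in wild type and -3.42 in the knockout. Their summed level was 1357 to 1447 CPM in wild type without and 366 to 423 CPM with IFN-γ, and 1219 to 1246 and 191 to 198 CPM in the knockout. The part of either in the fall of TRIM59 was not tested.

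TRIM65, a ligase of the RNA sensor MDA5, fell from 47.8, 55.4 and 49.8 to 32.1, 33.1 and 31.3 CPM in wild type (log2 fold change -0.66 with SE 0.07 and adjusted p = 2.8e-10). In the knockout it fell from 33.95, 31.9 and 33.1 to 24.7, 27.7 and 23.9 CPM (log2 fold change -0.37 with SE 0.07 and adjusted p = 2.3e-05), with treated and untreated libraries apart. TRIM28 fell from 285, 308 and 308 to 273, 277 and 260.1 CPM in wild type (log2 fold change -0.15 with SE 0.04 and adjusted p = 0.0016). In the knockout it fell from 247, 244 and 234 to 196, 196 and 189.7 CPM (log2 fold change -0.32 with SE 0.04 and adjusted p = 4.7e-08), small changes in a gene with little spread. TRIM32, an NHL-repeat ligase mutated in a limb-girdle muscular dystrophy, fell by 0.64 in wild type and by 0.91 in the knockout on the log2 scale. TRIM35, a regulator of interferon induction, fell by 0.42 and by 0.39, and TRIM58, which acts in erythroblast maturation, fell by 0.45 and by 0.54. TRIM66, a chromatin reader related to TRIM28, fell by 0.42 in the knockout and by 0.23 in wild type. The fall of TRIM66 in wild type (adjusted p = 0.044) was not called with DESeq2, no low-count filter or only the compared libraries (adjusted p from 0.055 to 0.075) or without replicate 1 or 2 of the wild type without IFN-γ, replicate 1 or 2 of the wild type with IFN-γ or replicate 1 or 2 of the knockout without IFN-γ (adjusted p from 0.05 to 0.17).

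**Figure D2:**
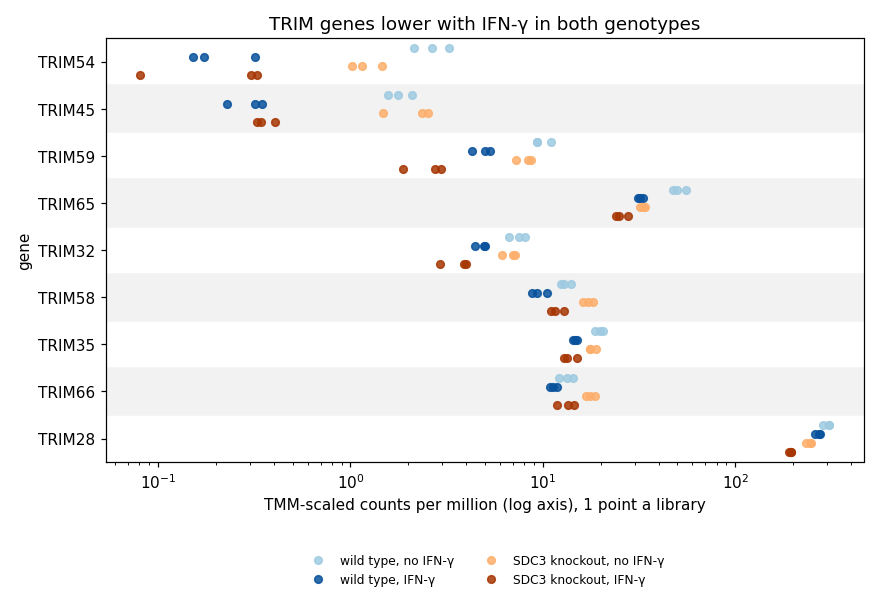
Level of the 9 members that fell with IFN-γ in both genotypes, in TMM-scaled CPM on a log axis, 1 point a library and 1 colour a group, ordered by the log2 fold change in wild type. TRIM54 and TRIM45 fall to between 0.081 and 0.405 CPM, near the floor of 3 counts, while TRIM28 stays at 189.7 CPM or more in every library.

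Some members passed the test in 1 genotype and missed it in the other, which does not show that the responses differed. TRIM71, TRIM68, TRIM62 and TRIM41 were called higher with IFN-γ in wild type and not called in the knockout. TRIM6, TRIM36, TRIM24 and TRIM33 were called higher in the knockout and not called in wild type. TRIM47 and TRIM67 were called lower in wild type and not called in the knockout, 0 members were called lower in the knockout and not in wild type, and 10 were called in neither response. Of all genes, 28.6% rose in wild type, 29.2% in the knockout and 23.9% in both, and 27.9%, 31.8% and 22.6% fell. All-gene shares for 1 genotype alone or for neither response were not computed, so these counts are description only. Whether a response differed between genotypes was tested as the response in the knockout minus that in wild type. By this test 8 members had a higher and 5 a lower response in the knockout, where 7.61% and 7.86% of all genes did. Among called differences, a size of 1 on the log2 scale was reached by 0 members upward (1.02% of all genes) and by 1 downward (1.65%).

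TRIM2, an NHL-repeat ligase first studied in neurons, had the largest gain. It stood at 9.03, 9.58 and 9.42 CPM in wild type without IFN-γ and 13.7, 11.7 and 13.8 CPM with it. For the knockout, values were 7.41, 8.83 and 7.29 CPM without and 19.4, 19.2 and 18.9 CPM with IFN-γ. The knockout was thus the lowest group without IFN-γ and the highest with it, and the responses of 0.48 and 1.29 differed (log2 difference 0.81, SE 0.14, adjusted p = 5.3e-05). TRIM36, a microtubule-associated ligase, stood at 10.5, 12.9 and 13.8 CPM and 13.5, 14.9 and 13.5 CPM in wild type without and with IFN-γ. Knockout values were 5.04, 4.84 and 6.68 CPM and 9.44, 8.63 and 10.6 CPM. It rose in the knockout from a lower level and stayed below wild type with IFN-γ (log2 difference 0.63, SE 0.17, adjusted p = 0.009). TRIM47, a RING ligase with a SPRY domain, stood at 32.1, 44.2 and 43.2 CPM and 19.3, 21.3 and 18.7 CPM in wild type without and with IFN-γ. The knockout stood at 8.96, 8.03 and 7.87 CPM and 6.89, 7.16 and 6.92 CPM, below every wild-type library. Its response was -1.01 in wild type and -0.24 in the knockout (log2 difference 0.77, SE 0.15, adjusted p = 0.00039). The response of TRIM5 was larger in the knockout by 0.52 (SE 0.12, adjusted p = 0.0032), which is a fold larger by 1.43 times. TRIM24 and TRIM33, nuclear cofactors of retinoic acid receptors and of SMAD proteins, had differences of 0.30 (adjusted p = 0.0037) and 0.27 (adjusted p = 0.0046). With TMM scaling both rose in the knockout, by 0.24 and 0.19, whereas with library totals alone these values were -0.06 and -0.10. Both were called lower in wild type by that setting, at -0.31 and -0.33 (adjusted p = 4.3e-06 and 4.6e-07), beside -0.06 and -0.08, not called, with TMM. The response of TRIM25 was smaller in the knockout, with a log2 difference of -0.33 (SE 0.06, adjusted p = 9.1e-05), from the higher untreated level. These 7 differences were called with each library left out in turn.

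The other 6 differences depended on single libraries or settings. TRIM22's was 0.21 (adjusted p = 0.035) and was not called with library totals alone (adjusted p = 0.1) or without replicate 1 or 3 of the wild type without IFN-γ, replicate 2 of the wild type with IFN-γ, replicate 1 or 2 of the knockout without IFN-γ or replicate 3 of the knockout with IFN-γ (adjusted p from 0.062 to 0.11). TRIM65's was 0.29 (adjusted p = 0.038) and was not called with library totals alone (adjusted p = 0.086) or without replicate 2 or 3 of the wild type without IFN-γ, replicate 1 or 3 of the wild type with IFN-γ, replicate 2 or 3 of the knockout without IFN-γ or replicate 2 of the knockout with IFN-γ (adjusted p from 0.05 to 0.13). TRIM71, an NHL-repeat ligase of stem cells, stood at 0.914, 1.85 and 1.81 CPM and 3.12, 3.65 and 2.69 CPM in wild type without and with IFN-γ, and at 0.791, 1.27 and 1.29 CPM and 0.729, 1.14 and 0.917 CPM in the knockout. Its wild-type libraries with IFN-γ were above all others, and its difference of -1.31 (adjusted p = 0.019) was not called without replicate 1 of the wild type without IFN-γ, replicate 2 of the wild type with IFN-γ, replicate 2 or 3 of the knockout without IFN-γ or replicate 1 of the knockout with IFN-γ (adjusted p from 0.051 to 0.06). TRIM59's difference was -0.66 (adjusted p = 0.026), and it was not called with DESeq2 (adjusted p = 0.053) or without replicate 2 or 3 of the wild type without IFN-γ, replicate 1 or 2 of the wild type with IFN-γ, replicate 2 or 3 of the knockout without IFN-γ or replicate 2 of the knockout with IFN-γ (adjusted p from 0.051 to 0.16). TRIM41, a ligase reported to act on influenza virus nucleoprotein, had a difference of -0.26 (adjusted p = 0.021), not called without replicate 1 of the wild type with IFN-γ, replicate 1 of the knockout without IFN-γ or replicate 3 of the knockout with IFN-γ (adjusted p from 0.063 to 0.082). With library totals alone its rise in wild type, 0.33, was 0.08 and not called (adjusted p = 0.22), and its value in the knockout turned from 0.07 to -0.23 (adjusted p = 0.00055). TRIM14's difference of -0.19 (adjusted p = 0.025) was not called with RLE size factors or no low-count filter (adjusted p from 0.058 to 0.075) or without replicate 2 of the wild type with IFN-γ or replicate 2 of the knockout with IFN-γ (adjusted p from 0.11 to 0.18). The count of members with a lower response in the knockout was 3 without replicate 2 of the knockout with IFN-γ, 3 without replicate 1 of the wild type with IFN-γ and 2 without replicate 2 of the wild type with IFN-γ. TRIM62, a ligase linked to epithelial polarity and to innate sensing, rose in wild type by 0.37 (adjusted p = 0.022), with treated and untreated libraries overlapping, and was not called with DESeq2 or library totals alone (adjusted p from 0.068 to 0.45) or without replicate 2 of the wild type without IFN-γ or replicate 1 or 2 of the wild type with IFN-γ (adjusted p from 0.078 to 0.11). In the knockout it stood at -0.15, which was called lower with library totals alone (-0.45, adjusted p = 0.0036). TRIM62's difference of responses was -0.53 (adjusted p = 0.06), and it was called with library totals alone (adjusted p = 0.037) or without replicate 3 of the wild type without IFN-γ, replicate 3 of the wild type with IFN-γ, replicate 2 of the knockout without IFN-γ or replicate 1 of the knockout with IFN-γ (adjusted p from 0.027 to 0.05). TRIM68, named after its values were seen, had responses of 0.47 in wild type, not called with library totals alone (adjusted p = 0.1), and 0.13 in the knockout, with a difference of -0.34 (adjusted p = 0.18). The difference of responses for TRIM6 (log2 0.72, adjusted p = 0.1), TRIM54 (log2 1.29, adjusted p = 0.18) and TRIM67 (log2 1.36, adjusted p = 0.39) missed the threshold. TRIM28's difference of -0.16 (adjusted p = 0.051) narrowly missed it and was called with library totals alone (adjusted p = 0.0099). It was also called without replicate 2 of the wild type without IFN-γ, replicate 3 of the wild type with IFN-γ or replicate 3 of the knockout without IFN-γ (adjusted p from 0.026 to 0.039).

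**Figure D3:**
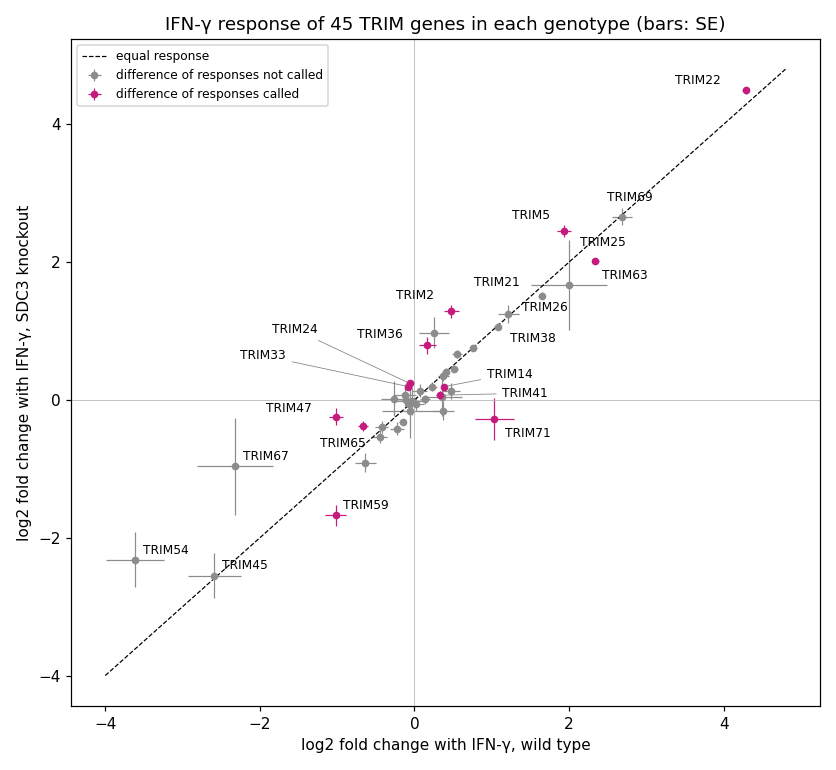
Log2 fold change with IFN-γ in wild type (horizontal) against that in the SDC3 knockout (vertical) for the 45 tested members, with SE bars and a dashed line of equal response. The members whose difference of responses was called are coloured and include TRIM2, TRIM5 and TRIM36 above the line and TRIM25, TRIM59 and TRIM71 below it, and the wild-type and knockout values each contrast the genotype's own untreated libraries.

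Members differed between genotypes in both directions. Without IFN-γ 13 of the 45 were higher in the knockout, against 25.4% of all genes, and 17 were lower, against 24.8%. With IFN-γ 12 were higher, against 22.9% of all genes, and 17 lower, against 24.3%. The median log2 fold change of the members was -0.14 without and -0.01 with IFN-γ, beside 0.01 and -0.01 over all genes. Called differences of at least 1 on the log2 scale were all downward: 6 members without IFN-γ (6.1% of all genes) and 4 with it (7.15%), and 0 upward at either condition (3.03% and 2.18% of all genes). The 6 were TRIM72, TRIM67, TRIM47, TRIM6, TRIM36 and TRIM54, and the 4 were TRIM72, TRIM71, TRIM47 and the sparsely counted TRIM63, whose call was lost without replicate 1 or 3 of the knockout with IFN-γ (adjusted p from 0.055 to 0.072). Both comparisons called 9 members higher (16.2% of all genes) and 11 lower (17.1%), and TRIM2 was called in opposite directions (1.49%).

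TRIM72, known as MG53 in membrane repair of muscle, had the largest difference. It stood at 5.26, 5.85 and 5.23 CPM in wild type and 1.08, 0.892 and 0.903 CPM in the knockout without IFN-γ (log2 fold change -2.51 with SE 0.19 and adjusted p = 1.6e-12). With IFN-γ it stood at 4.89, 4.90 and 3.78 CPM in wild type and 1.17, 0.814 and 0.917 CPM in the knockout (log2 fold change -2.22 with SE 0.21 and adjusted p = 1.1e-10). No knockout library reached the level of a wild-type one, and it was called in neither IFN-γ response. TRIM47, whose values are given above, was lower in the knockout, with a log2 fold change of -2.27 (SE 0.10, adjusted p = 2e-18) without and -1.50 (SE 0.11, adjusted p = 6.6e-13) with IFN-γ. TRIM65, the next protein-coding gene on chromosome 17 (chr17:75874161-75878575 and chr17:75880335-75897003), was lower, at -0.63 and -0.34. TRIM67, a neuronal member, had 20, 47 and 32 counts in wild type and 6, 8 and 5 in the knockout without IFN-γ (log2 fold change -2.36 with SE 0.48 and adjusted p = 0.00011). TRIM6, which makes unanchored ubiquitin chains in interferon induction, stood at 2.63, 2.43 and 2.51 CPM in wild type and 0.935, 0.988 and 1.10 CPM in the knockout without IFN-γ (log2 fold change -1.32 with SE 0.22 and adjusted p = 5e-06). With IFN-γ it stood at 2.68, 2.81 and 3.56 and 1.94, 2.12 and 1.91 CPM (log2 fold change -0.60 with SE 0.20 and adjusted p = 0.014), apart but closer, and that call was lost without replicate 3 of the wild type with IFN-γ (adjusted p = 0.096) and with DESeq2 (adjusted p = 0.05). TRIM36 was lower, at -1.17 (SE 0.12) without and -0.54 (SE 0.12) with IFN-γ. TRIM54 was lower, at -1.15 (adjusted p = 0.00079) without IFN-γ, and with it the genotypes overlapped near the floor. TRIM71 was lower, at -1.76 (adjusted p = 2.6e-06) with IFN-γ, where no libraries overlapped, and stood at -0.45 (adjusted p = 0.18) without it, where they did.

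Among members higher in the knockout, TRIM25 had a log2 fold change of 0.71 (SE 0.04, adjusted p = 4.3e-15) without and 0.38 (SE 0.04, adjusted p = 1.6e-09) with IFN-γ. TRIM46 had 0.66 and 0.78, TRIM62 0.52 (adjusted p = 0.0017) and -0.01 (adjusted p = 0.97), and TRIM2, called in opposite directions, -0.25 and 0.55. TRIM66 had 0.42 without IFN-γ, and TRIM58 0.39 without and 0.30 with it. TRIM14 had 0.47 and 0.28, TRIM56 0.43 and 0.43, TRIM21 0.37 and 0.24, and TRIM38 0.27 and 0.25. In TRIM25, TRIM14, TRIM56, TRIM21 and TRIM38 no group overlapped another. The genotype differences of TRIM25, TRIM56, TRIM21 and TRIM38 were smaller than their responses, and for TRIM14 the difference without IFN-γ was larger than either response. TRIM5 was higher in the knockout with IFN-γ by 0.38 (adjusted p = 8.3e-05), and without it stood at -0.13 (adjusted p = 0.27). TRIM69 did not pass with 0.26 and 0.24 (adjusted p = 0.16 and 0.05), and the second was called with RLE size factors or only the compared libraries (adjusted p from 0.028 to 0.037) or without replicate 1 of the wild type without IFN-γ or replicate 3 of the knockout without IFN-γ (adjusted p from 0.048 to 0.048). TRIM28 was lower in the knockout, at -0.31 without and -0.48 with IFN-γ, and TRIM59 stood at -0.95 with IFN-γ (adjusted p = 1.2e-05). TRIM37, a centrosome ligase, was lower, at -0.29 without IFN-γ. Of the 20 cell cycle genes, 14 were lower in the knockout without and 19 with IFN-γ, with medians of -0.19 and -1.48 (9 without IFN-γ when replicate 1 of the knockout without it was left out), and their part in these falls was not tested.

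Several smaller genotype calls rested on single libraries or settings. Without IFN-γ, TRIM22 (-0.14, adjusted p = 0.042) was not called with no low-count filter or only the compared libraries (adjusted p from 0.051 to 0.085) or without replicate 1 or 3 of the wild type without IFN-γ or replicate 1 or 2 of the knockout without IFN-γ (adjusted p from 0.073 to 0.15). TRIM2 (-0.25, adjusted p = 0.038) was not called with DESeq2 or no low-count filter (adjusted p from 0.062 to 0.073) or without replicate 2 or 3 of the wild type without IFN-γ or replicate 1 or 3 of the knockout without IFN-γ (adjusted p from 0.081 to 0.16). TRIM33 (-0.16, adjusted p = 0.0047) was not called without replicate 1 of the knockout without IFN-γ (adjusted p = 0.068). TRIM8 was lower, at -0.14 without and -0.14 with IFN-γ. The first call was lost without replicate 2 or 3 of the wild type without IFN-γ or replicate 3 of the knockout without IFN-γ (adjusted p from 0.052 to 0.086), and the second without replicate 1 of the wild type with IFN-γ or replicate 2 or 3 of the knockout with IFN-γ (adjusted p from 0.11 to 0.15). With IFN-γ, TRIM32 (-0.41) was not called without replicate 1 or 2 of the wild type with IFN-γ or replicate 1 of the knockout with IFN-γ (adjusted p from 0.065 to 0.15) or with DESeq2 (adjusted p = 0.067). TRIM58 (0.30) was not called with library totals alone (adjusted p = 0.069) or without replicate 3 of the wild type with IFN-γ or replicate 1 of the knockout with IFN-γ (adjusted p from 0.07 to 0.086). TRIM3, an NHL-repeat ligase, was lower, at -0.69 without and -0.50 with IFN-γ, and the second call was lost without replicate 2 of the wild type with IFN-γ or replicate 1 of the knockout with IFN-γ (adjusted p from 0.065 to 0.11). TRIM27 (0.21) was not called without replicate 1 of the wild type with IFN-γ (adjusted p = 0.12) or with library totals alone (adjusted p = 0.13). Without IFN-γ, TRIM27 was also higher in the knockout, by 0.24 (adjusted p = 0.0051), and no libraries overlapped.

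Genotype differences of neighbouring genes were set beside those of the members, as the median over the 10 nearest tested genes on each side that are not members. Neighbours of TRIM46, on chromosome 1, were themselves higher in the knockout: their median was 0.49 without and 0.60 with IFN-γ, and 15 of 20 were called higher at each condition. Neighbours of TRIM28 had medians of -0.24 and -0.28, from 15 genes near the end of chromosome 19. TRIM16, named after its values were seen, was lower at -0.49 without and -0.48 with IFN-γ, and its neighbours had medians of -0.39 and -0.51, with 11 and 14 of 20 called lower and 0 higher. It shares 28.7% of its exon bases with other genes. The first call on TRIM16 was lost with DESeq2 (adjusted p = 0.064) or without replicate 1 of the wild type without IFN-γ or replicate 1 or 3 of the knockout without IFN-γ (adjusted p from 0.063 to 0.15), and the second with DESeq2, RLE size factors, no low-count filter or a replicate block (adjusted p from 0.052 to 0.12) or without replicate 1 or 2 of the wild type with IFN-γ or replicate 1 or 2 of the knockout with IFN-γ (adjusted p from 0.058 to 0.2). Around TRIM66, 11 of 20 neighbours were lower without and 12 with IFN-γ, whereas TRIM66 had values of 0.42 and 0.23. For TRIM72, TRIM47, TRIM6 and TRIM36 the neighbours' medians without IFN-γ were 0.34, 0.05, 0.10 and 0.00, while each of these members was lower by more than 1. For TRIM25 they were 0.05 without and -0.03 with IFN-γ. What neighbours contribute to any member's value was not tested.

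**Figure D4:**
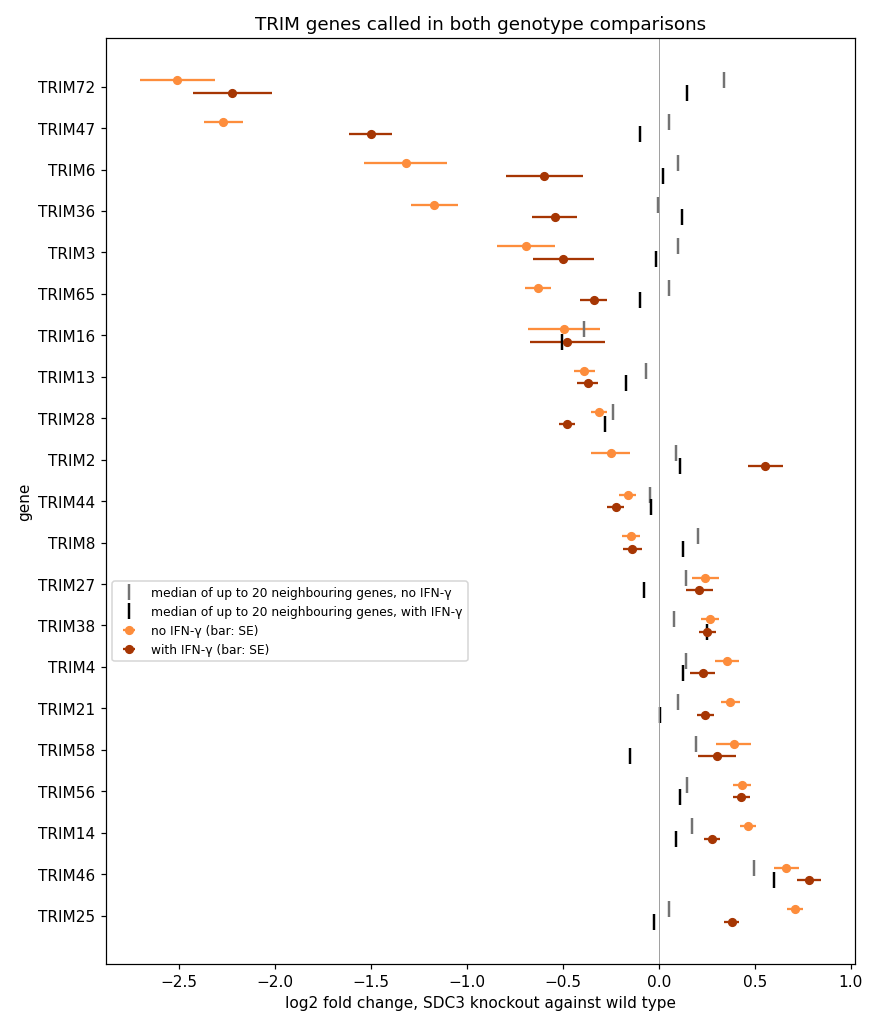
Log2 fold change of the knockout against wild type, without (light) and with (dark) IFN-γ, with SE bars, for the 21 members called in both genotype comparisons, and vertical ticks for the median of up to 20 neighbouring genes. TRIM72 lies at -2.51 and -2.22, apart from the ticks of its neighbours, TRIM46 lies close to its own, and TRIM2 is on opposite sides of 0.

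By C-terminal domain, counts were small in most classes. The 4 PHD and bromodomain members (TRIM24, TRIM28, TRIM33 and TRIM66) had 0 rises and 2 falls in wild type, and 2 rises and 2 falls in the knockout. Those with NHL repeats (TRIM2, TRIM3, TRIM32 and TRIM71) had 2 rises and 1 fall in wild type, and 1 of each in the knockout. Of 22 tested members with a PRY-SPRY domain or no assigned class, 13 rose and 4 fell in wild type, beside 28.6% and 27.9% of all genes, and 11 rose and 3 fell in the knockout, beside 29.2% and 31.8%, with medians of 0.35 and 0.16. TRIM9, TRIM17 and TRIM23, named after their values were seen, were called in no comparison. TRIM9 was called lower in the knockout with IFN-γ with library totals alone (adjusted p = 0.031) or without replicate 3 of the wild type without IFN-γ (adjusted p = 0.049), and TRIM23 rose in the knockout without replicate 3 of the knockout without IFN-γ (adjusted p = 0.025).

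Relatives that carry a tripartite motif, or a RING and SPRY domain, under another name behaved variously. Of 9 listed, 7 were tested, of which 4 rose in wild type and 5 rose and 1 fell in the knockout. All-gene shares were 28.6% rising and 27.9% falling in wild type, and 29.2% and 31.8% in the knockout. PML, the organiser of nuclear bodies, rose from 52.2 to 216 CPM in wild type and from 61.3 to 254 CPM in the knockout, by 2.05 on the log2 scale in each. MEFV, which encodes the inflammasome sensor pyrin, stood at 12.9, 11.4 and 10.7 CPM without and 29.2, 27.3 and 27.1 CPM with IFN-γ in wild type, and at 36.7, 33.9 and 35.5 and 51.8, 49.8 and 54.8 CPM in the knockout, with no groups overlapping. It rose in both genotypes, by 1.27 and 0.56. It was higher in the knockout at both conditions, and its response was smaller there (log2 difference -0.70, SE 0.10, adjusted p = 3.9e-06). RNF135, also called Riplet, a ligase of RIG-I, rose by 0.31 in wild type and 0.11 in the knockout. With library totals alone the first was not called (adjusted p = 0.31) and the second turned to -0.19. The second was also not called with no low-count filter or a replicate block (adjusted p from 0.056 to 0.073) or without replicate 3 of the wild type without IFN-γ, replicate 2 of the wild type with IFN-γ, any replicate of the knockout without IFN-γ or replicate 1 or 2 of the knockout with IFN-γ (adjusted p from 0.05 to 0.15). The smaller response of RNF135 in the knockout (-0.20, adjusted p = 0.044) was not called with DESeq2, RLE size factors, no low-count filter or a replicate block (adjusted p from 0.054 to 0.12) or without any 1 library other than replicate 3 of the wild type without IFN-γ (adjusted p from 0.052 to 0.15). BSPRY, which has a B-box and a SPRY domain, rose by 0.49 in wild type, and by 0.65 in the knockout, not called with library totals alone (adjusted p = 0.1). The call in wild type was lost with DESeq2, RLE size factors, library totals alone, no low-count filter, only the compared libraries or a replicate block (adjusted p from 0.051 to 0.33) or without any replicate of the wild type without IFN-γ, replicate 1 or 3 of the wild type with IFN-γ or replicate 2 of the knockout with IFN-γ (adjusted p from 0.051 to 0.2). MID2 rose in the knockout by 0.78 and stood at 0.08 in wild type, RNF207 fell by 1.49 in the knockout, MID1 was called in no comparison, and TRIML1 and TRIML2 were at 0. In the knockout against wild type, 3 of the 7 were higher without IFN-γ, and 4 were higher and 1 lower with it. Among all genes, 25.4% were higher and 24.8% lower without IFN-γ, and 22.9% and 24.3% with it. With IFN-γ the higher value of BSPRY was not called with DESeq2 or library totals alone (adjusted p from 0.064 to 0.066) or without replicate 1 or 2 of the wild type with IFN-γ or replicate 3 of the knockout with IFN-γ (adjusted p from 0.05 to 0.16). The lower value of RNF207 was not called with DESeq2 (adjusted p = 0.083) or without replicate 1 or 2 of the wild type with IFN-γ or replicate 1 or 2 of the knockout with IFN-γ (adjusted p from 0.063 to 0.17).

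Of 25 tested partners of TRIM proteins in RNA sensing, capsid restriction and ubiquitin transfer, 16 rose and 1 fell with IFN-γ in wild type, beside 28.6% and 27.9% of all genes. In the knockout 16 rose and 3 fell, beside 29.2% and 31.8%, and the medians were 0.21 and 0.42. With library totals alone 9 rose and 8 fell in wild type, and 11 rose and 10 fell in the knockout. The 1 fall in wild type was VCP (-0.09, adjusted p = 0.047), which was not called with no low-count filter, only the compared libraries or a replicate block (adjusted p from 0.055 to 0.086) or without any replicate of the wild type without IFN-γ, replicate 1 or 3 of the wild type with IFN-γ, any replicate of the knockout without IFN-γ or replicate 1 or 3 of the knockout with IFN-γ (adjusted p from 0.056 to 0.19). UBE2L6, the conjugating enzyme for ISG15 and ubiquitin, rose by 3.60 and 3.69, and IRF7 by 3.52 and 3.42. RIGI, the RNA sensor that TRIM25 modifies, rose from 14.99 to 115 CPM in wild type and from 14.1 to 165 CPM in the knockout, a larger response in the knockout (log2 difference 0.61, SE 0.09, adjusted p = 3.9e-06). The conjugating enzyme UBE2D1 had a difference of 0.74, and the adaptor MAVS one of -0.28, with responses of 0.00 (not called) in wild type and -0.28 in the knockout. In all, the response was larger in the knockout for 6 of the 25 and smaller for 1, beside 7.61% and 7.86% of all genes. Knockout against wild type, 5 were higher and 11 lower without IFN-γ (TBK1 -0.45, PSMD14 -0.31, STING1 0.40), and 10 were higher and 6 lower with it (11 lower with library totals alone). All-gene shares were 25.4% higher and 24.8% lower without IFN-γ, and 22.9% and 24.3% with it.

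Chromatin partners of TRIM28, TRIM24 and TRIM33 split, with 9 of 16 rising and 5 falling in each genotype. Over all genes, 28.6% rose and 27.9% fell in wild type, and 29.2% rose and 31.8% fell in the knockout. With library totals alone 2 rose and 9 fell in wild type, and 1 rose and 9 fell in the knockout. SETDB1, the histone methyltransferase that TRIM28 recruits, rose by 0.29 in wild type and 0.19 in the knockout. Library totals alone left the first uncalled (adjusted p = 0.46) and gave -0.10 for the second. SETDB1 was higher in the knockout by 0.53 without and 0.43 with IFN-γ. Its cofactor ATF7IP fell by 0.20 and 0.15 with IFN-γ and was higher in the knockout by 0.61 and 0.66. CHD3, a remodeller bound by TRIM28, fell by 0.71 in wild type and 1.23 in the knockout (log2 difference -0.52, SE 0.07, adjusted p = 3.8e-06). SMAD3, a target of TRIM33 complexes, rose by 0.76 in wild type and 0.20 in the knockout, where library totals alone gave -0.10 (log2 difference -0.56, adjusted p = 7.5e-06). Of the 16, 0 had a larger and 3 a smaller response in the knockout, where 7.61% and 7.86% of all genes did. The count of larger responses was 3 with DESeq2 and with RLE size factors, 2 with no low-count filter, 2 without replicate 2 of the wild type without IFN-γ, 2 without replicate 2 of the knockout with IFN-γ, and 1 without replicate 3 of the wild type with IFN-γ or replicate 3 of the knockout without it. MORC3 (log2 difference 0.23, adjusted p = 0.051) and SMAD2 (0.16, adjusted p = 0.094) were among those gained. The smaller response of ATM (-0.19, adjusted p = 0.028) was not called with RLE size factors or no low-count filter (adjusted p from 0.064 to 0.076) or without replicate 2 or 3 of the wild type without IFN-γ, replicate 2 or 3 of the wild type with IFN-γ, replicate 2 or 3 of the knockout without IFN-γ or replicate 1 or 2 of the knockout with IFN-γ (adjusted p from 0.06 to 0.21). Knockout against wild type, 3 were higher and 4 lower without IFN-γ, and 4 higher and 5 lower with it. Of all genes, 25.4% were higher and 24.8% lower without IFN-γ, and 22.9% and 24.3% with it.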

How the data were processed

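The authors deposited 1 table of read counts by gene (hg38), made with featureCounts 2.0.3 over exons, primary alignments only and chimeric pairs left out, with no strand option, per the file headers. Mates were counted separately by the options given, and 70.4% to 73.3% of counts from 1 to 19 were even. Per the labels' protocols, a stranded mRNA kit was used on 1 µg of total RNA. Picard 2.27.5, STAR 2.7.10b, BWA, FastQC, MultiQC and fastp 0.23.2 are listed without a role, per the submitters' processing notes. Which annotation release was counted is not given in the sources used here.

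Genes passing filterByExpr were scaled by TMM and fitted with edgeR 4.0.16 (limma 3.58.1, R 4.3.3), using its quasi-likelihood test, with the 4 groups as sole factor and all 12 libraries fitted together. P-values were two-sided and adjusted by Benjamini-Hochberg over all 17119 genes. CPM and log2 values were computed here from the counts. Between replicates, chi-square per degree of freedom ran from 2.79 to 6.98. Counting mates separately raises this value, so the excess over sampling noise is smaller than these figures show. The fit was tested on simulated data. Promoters were from RefSeq.

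Named genes were a panel of 19 members, among them interferon-linked and nuclear ones and also TRIM32, TRIM37 and TRIM59. To these were added the 8 largest called changes per direction and comparison at 1 CPM or more with no overlap of replicates. Members in the chromosome 6 window, relatives under other names, and the 2 largest changes per direction among partners were named too. Members and lists were chosen with earlier results of these data known. A few listed genes are not reported here, and the lists' values were computed without them. Other settings tried were a threshold of 1 on the log2 scale, DESeq2 1.42.0, RLE factors or library totals in place of TMM, no filter, fits of the compared libraries only, a replicate block, and dropping each library in turn.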

Additional observations from a re-analysis of the deposited data

Results flagged for a closer look

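In 13 of the 45 tested members the IFN-γ response was called different between genotypes, tested as an interaction with edgeR's quasi-likelihood test. The response in the knockout was higher in 8 and lower in 5, where 7.61% and 7.86% of all genes were. The difference, as the log2 response in the knockout minus that in wild type, was 0.81 for TRIM2, 0.77 for TRIM47, 0.63 for TRIM36, 0.52 for TRIM5, 0.30 for TRIM24, 0.29 for TRIM65, 0.27 for TRIM33 and 0.21 for TRIM22. It was -1.31 for TRIM71, -0.66 for TRIM59, -0.33 for TRIM25, -0.26 for TRIM41 and -0.19 for TRIM14. The calls for TRIM22, TRIM65, TRIM71, TRIM59, TRIM41 and TRIM14 depended on single libraries or settings, as described above. Groups of 3 libraries were not searched for single libraries that stand apart.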

How the results depend on the processing

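The counts of members called stayed within 1.5 times of the main ones with DESeq2, RLE size factors, no low-count filter, only the compared libraries and the replicate block. With the replicate block, 20 members rose and 11 fell in wild type, 20 rose and 9 fell in the knockout, the response was higher in 8 and lower in 5, and 12 were higher and 16 lower with IFN-γ and 13 and 17 without it in the knockout. No pairing of libraries by number was seen: same-numbered libraries correlated at -0.14 to 0.24, 2 of 18 pairs above 0.1, and 4 of 12 libraries correlated best with their own number. With 3 libraries a group, such correlations cannot exclude weak pairing. With library totals alone 18 members fell in wild type and 17 in the knockout. The sign of the knockout value was reversed for TRIM14 (-0.10), TRIM24 (-0.0585), TRIM33 (-0.10), TRIM41 (-0.23), RNF135 (-0.19), SETDB1 (-0.10), SMAD3 (-0.10), SMAD4 (-0.16), TRIM4 (-0.29) and TRIM11 (-0.10). That of the wild-type value was reversed for TRIM11 (-0.0244), TRIM52 (-0.24), PSMD14 (-0.056), SMAD2 (-0.10) and SMAD4 (-0.19). Among these, TRIM4 (0.01) and TRIM41 (0.07) in the knockout and TRIM52 (0.01) in wild type were not called with TMM. At a log2 fold change of at least 1 the counts higher and lower were 9 and 5 (wild-type response), 9 and 3 (knockout response), 0 and 1 (difference), 0 and 4 (genotype with IFN-γ) and 0 and 6 (genotype without it). Leaving out each library in turn gave 19 to 22 and 10 to 11, 19 to 22 and 9 to 10, 6 to 8 and 2 to 7, 11 to 14 and 12 to 18, and 11 to 13 and 13 to 18 in the same order. The block ended the calls of TRIM16 (with IFN-γ), RNF135 (knockout rise and difference), BSPRY and VCP (wild type). Over the tested members and named genes, 6341 of 6663 values under another setting kept their direction and side of the threshold, 222 lost and 71 gained the call, 14 moved without a call and 15 reversed. Causes were not tested. Members under 1 CPM (TRIM54 and TRIM45 with IFN-γ, TRIM63, TRIM67 in part) were limited by depth, and the 22 untested members had too few counts to compare.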
